A study of Arabidopsis thaliana with 7 samples.

Results

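AS1 and AS2 encode repressors of some KNOX homeobox genes in the leaf. The genes described here are AS1, AS2 and the 8 KNOX genes of Arabidopsis thaliana that carry a full homeodomain. They were chosen by locus, as every probe whose RefSeq transcript belongs to STM (AT1G62360), KNAT1 (AT4G08150, also called BP), KNAT2 (AT1G70510), KNAT6 (AT1G23380), KNAT3 (AT5G25220), KNAT4 (AT5G11060), KNAT5 (AT4G32040), KNAT7 (AT1G62990), AS1 (AT2G37630) or AS2 (AT1G65620). All 10 loci had probes, 18 in all, out of 25347 genes named on the array, and all 10 entered the test of 20509 genes. RNA came from whole seedlings, 3 weeks old, of the Columbia-0 accession on sucrose-containing MS agar. One group, with 4 arrays, carried 35S:MYB106VP16, in which the cauliflower mosaic virus 35S promoter drives the epidermal transcription factor MYB106 joined to the VP16 activation domain throughout the plant. The other group was wild type, with 3 arrays. The number of transgenic lines behind these arrays is not stated in the labels. Several plants from a plate were pooled for an extraction and no label speaks of separately grown batches, so the p-values cover the spread among these 7 samples alone, possibly a technical one.

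KNOX proteins are TALE-class homeodomain transcription factors that work as dimers with BELL homeodomain proteins. Class I members keep cells of the shoot apical meristem undifferentiated, in part by raising cytokinin and lowering gibberellin, while class II members are expressed widely in differentiating organs. In leaf primordia a complex of AS1, a MYB protein, and AS2, a LOB-domain protein, binds KNAT1 and KNAT2 and keeps class I genes other than STM silent, and STM in turn represses AS1 in the meristem.

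MYB106 itself stood at 2.56 to 3.48 on the transgenic arrays and at -2.86 to -2.41 in wild type by its brighter probe, where each value is the log2 of the processed signal relative to the 75th percentile signal of its own array. That is 52.1-fold higher (limma adjusted p = 2.74e-05). All level values below are on this scale, and all changes are 35S:MYB106VP16 minus wild type on log2. Leaf markers (5 of 5) and root markers (8 of 8) were well above background on every array, as was the case for 4 of 5 floral organ markers. Their levels were not all alike in the 2 groups. At a limma adjusted p under 0.05, which 52.9% of all genes passed, 3 root markers were higher and 1 lower. The largest of these changes was the 4.16-fold rise of PRP3. Among the leaf markers 1 was lower, and among the floral organ markers 1 was higher. Each genotype filled its own slide with its own scan, so slide and genotype cannot be told apart. RNAs spiked in at labelling, in 7 transcripts well above background on every array, were themselves 0.20 to 0.88 higher on the transgenic slide. Across whole seedlings, fewer cells of a type and less RNA per cell cannot be told apart.

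Of the 10 genes, 3 rose (KNAT2, KNAT6 and KNAT7), 3 fell (KNAT3, AS1 and AS2) and 4 did not pass (STM, KNAT1, KNAT4 and KNAT5), with a limma adjusted p under 0.05 over all 20509 genes as the threshold. At that threshold 52.9% of all genes tested were called, 28.1% higher and 24.8% lower, so 6 of 10 is near the background of these arrays. The groups of arrays did not overlap for the same 6 genes, against 57.6% of all genes. No member changed by 2-fold, which 10.5% of all genes did while passing the threshold. The median change of the 10 was 0.14, against 0.02 for all genes. What follows is therefore about which members moved which way, and by how much.

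**Figure D1:**
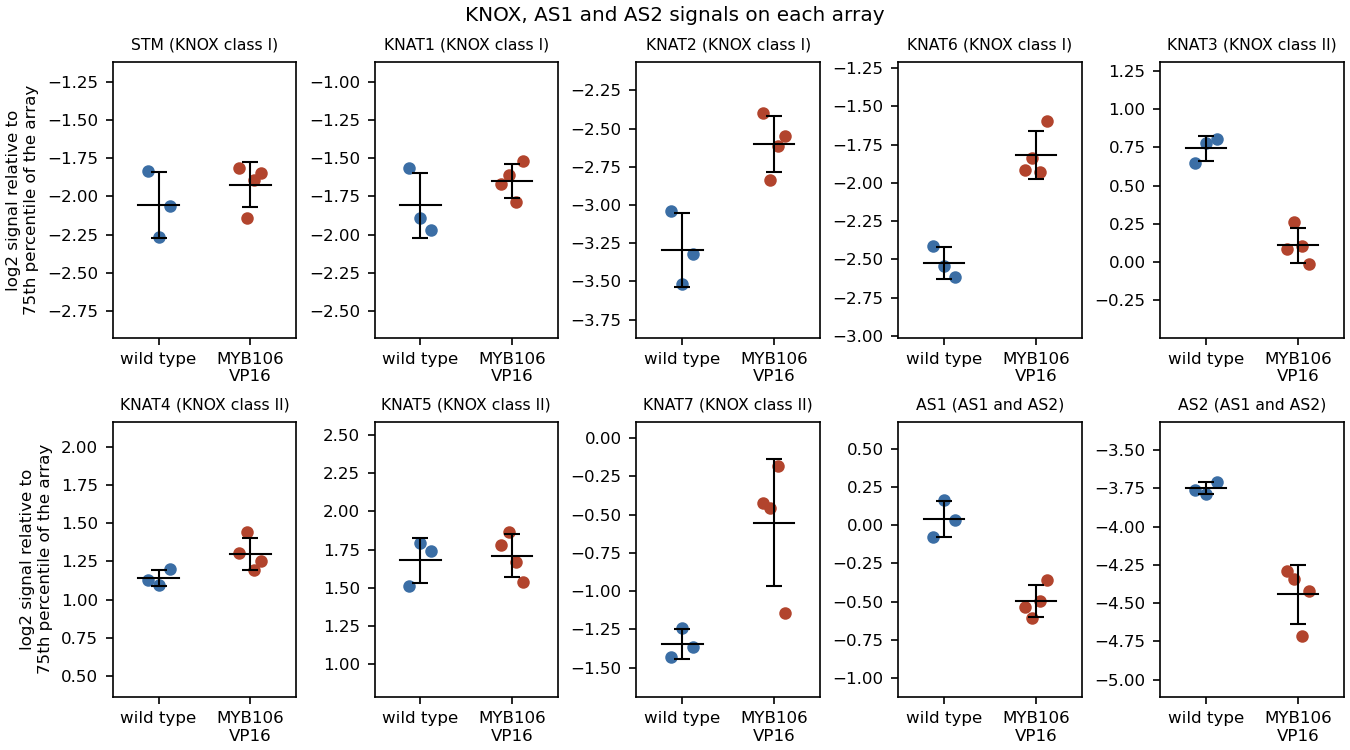
Log2 signal of each member gene, by its brightest probe, on each array relative to the 75th percentile of that array (y axis, the same span of 1.8 in every panel), with wild type (blue, 3 arrays) and 35S:MYB106VP16 (red, 4 arrays); black lines and bars are mean ± SD. The groups separate upward for KNAT2, KNAT6 and KNAT7, downward for KNAT3, AS1 and AS2, and overlap for the other 4.

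Class I split into a pair that rose and a pair that did not pass. KNAT2 stood at -2.40, -2.84, -2.61 and -2.55 on replicates 1 to 4 of 35S:MYB106VP16, and at -3.04, -3.52 and -3.32 on replicates 1 to 3 of wild type. Every transgenic array was above every wild-type array, and KNAT2 was 1.62-fold higher (log2 0.69 ± 0.14 SE; limma adjusted p = 0.00556). KNAT6, the closest paralog of KNAT2 and a gene of the meristem and organ boundaries, stood at -1.92, -1.83, -1.93 and -1.59 in 35S:MYB106VP16 and at -2.41, -2.54 and -2.62 in wild type. Its groups did not overlap either, and its rise of 1.63-fold (log2 0.71 ± 0.10 SE; limma adjusted p = 0.00144) was close to that of KNAT2. Each of these genes has 1 probe on the array. Cross-hybridisation between these paralogs could not be assessed, because no probe sequences were analysed here.

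STM, the gene without which no shoot meristem is kept, stood at -1.82, -2.14, -1.89 and -1.85 in 35S:MYB106VP16 and at -1.83, -2.26 and -2.06 in wild type by its brighter probe. The groups overlapped, and the change of 0.13 did not pass (limma adjusted p = 0.413), with a 95% interval of -0.16 to 0.42. The other STM probe, named for the same transcript and well above background on all 7 arrays, pointed the opposite way. It read -3.81, -4.13, -4.03 and -4.02 against -3.29, -3.76 and -3.55, without overlap, a change of -0.46 ± 0.13 SE (limma adjusted p = 0.0186 over all probes, of which 53.9% passed). The direction for STM thus rests on the probe, and none is given here.

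KNAT1, which shapes the inflorescence stem and pedicels and is the best known target of AS1 and AS2, stood at -1.67, -1.61, -1.79 and -1.52 in 35S:MYB106VP16 and at -1.57, -1.89 and -1.97 in wild type. Replicate 1 of wild type lay within the transgenic range. The change of 0.16 did not pass (limma adjusted p = 0.274; 95% interval -0.11 to 0.43), and the second KNAT1 probe, at 0.25, did not pass either (limma adjusted p = 0.198 over all probes). The intervals of STM and KNAT1, by their brighter probes, end below the fitted rises of KNAT2 and KNAT6, and they do not show that either gene was unaltered. The 95% interval of KNAT2, 0.36 to 1.03, overlaps both, while that of KNAT6, 0.46 to 0.95, lies above both.

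Both repressor genes fell. AS1 stood at -0.53, -0.61, -0.49 and -0.36 in 35S:MYB106VP16 and at -0.08, 0.16 and 0.03 in wild type. The groups did not overlap, with AS1 1.45-fold lower, a log2 change of -0.54 ± 0.09 SE (limma adjusted p = 0.00244). With the constants of the authors' series table its fall was -0.33 and did not pass (limma adjusted p = 0.0641). AS2 was dim, at -4.29, -4.34, -4.72 and -4.42 in 35S:MYB106VP16 and at -3.76, -3.78 and -3.71 in wild type, yet well above background on all 7 arrays. Every transgenic array lay below every wild-type array, a 1.62-fold fall with a log2 change of -0.69 ± 0.11 SE (limma adjusted p = 0.00195). The other AS2 probe never rose above background and gives no level for AS2. Averaging it in, as the mean over all probes of a gene does, took AS2 to -0.27 (limma adjusted p = 0.153).

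Class II held the largest rise and the remaining fall. KNAT7, a regulator of secondary wall formation in fibres and vessels, stood at -0.43, -0.46, -0.18 and -1.14 in 35S:MYB106VP16 and at -1.43, -1.24 and -1.37 in wild type. Replicate 4 of 35S:MYB106VP16 lay far below the other 3 but still above all wild-type arrays. KNAT7 was 1.74-fold higher (log2 0.80 ± 0.21 SE; limma adjusted p = 0.0164), and its second probe gave 0.82, with the same array lowest, at -2.005 against -1.28 to -0.95. The call was lost without wild type replicate 1 (limma adjusted p = 0.0534) and without wild type replicate 3 (0.0521). Without 35S:MYB106VP16 replicate 4 the rise was 0.99.

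KNAT3, which with KNAT4 and KNAT5 makes up the subgroup of class II that promotes differentiation of aerial organs, stood at 0.09, 0.27, 0.10 and -0.01 in 35S:MYB106VP16 and at 0.65, 0.78 and 0.80 in wild type. The groups were well apart, and KNAT3 fell 1.55-fold, a log2 change of -0.63 ± 0.09 SE (limma adjusted p = 0.00105). A second KNAT3 probe was faint, above background on 3 of 4 transgenic and 2 of 3 wild-type arrays, and its change of 0.16 ± 0.32 SE did not pass (limma adjusted p = 0.703 over all probes). The mean over both KNAT3 probes was -0.24 and did not pass (limma adjusted p = 0.249).

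KNAT4 and KNAT5 did not pass. KNAT4 stood at 1.31, 1.44, 1.195 and 1.252 in 35S:MYB106VP16 and at 1.12, 1.10 and 1.201 in wild type, a change of 0.16 (limma adjusted p = 0.134; 95% interval -0.03 to 0.34) that passed with median scaling (0.27; limma adjusted p = 0.0227). Its other probe gave -0.15. KNAT5 stood at 1.78, 1.86, 1.67 and 1.54 against 1.51, 1.79 and 1.74, a change of 0.03 (limma adjusted p = 0.826; 95% interval -0.22 to 0.28), and its other probes gave -0.13 and -0.20. None of these 3 dimmer probes passed, at limma adjusted p of 0.240, 0.410 and 0.256 over all probes.

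**Figure D2:**
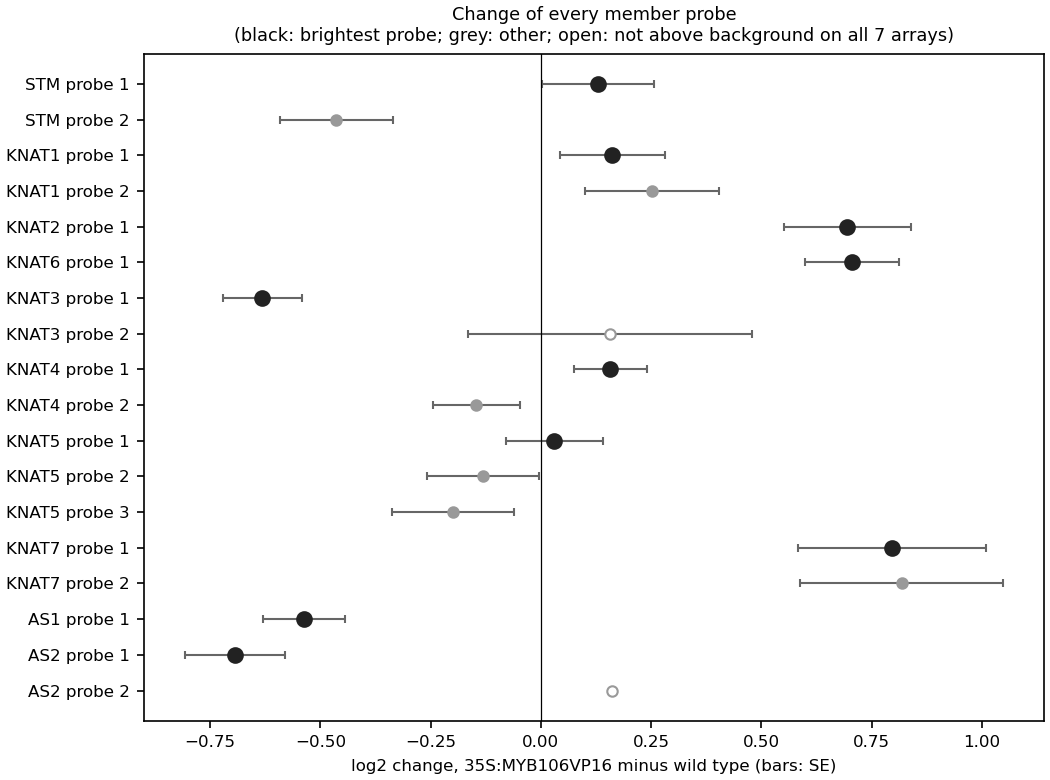
Log2 change (x axis, 35S:MYB106VP16 minus wild type; bars are SE) of each of the 18 member probes, brightest first within a gene; open circles were not well above background on all 7 arrays, and the AS2 probe without a bar was not tested. Both KNAT7 probes lie near 0.8, while the STM probes lie on opposite sides of 0, at 0.13 and -0.46.

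Set against all genes, these were moderate changes. The absolute change of KNAT7 was at least as large as that of 82.6% of the genes tested, that of KNAT6 of 78.7%, KNAT2 of 78.2%, AS2 of 78.1%, KNAT3 of 74.7% and AS1 of 68.5%. The absolute changes of KNAT1, KNAT4, STM and KNAT5 lay at 25.8%, 25.1%, 21.1% and 4.98% in the same ranking.

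The direction of several members depended on the scaling. Scaling to the 7 spike-in transcripts shifted the median of all genes from 0.02 to -0.54. With it KNAT2, KNAT6 and KNAT7 stood at 0.13, 0.14 and 0.23 and did not pass (limma adjusted p = 0.419, 0.345 and 0.374), while STM, KNAT1, KNAT4 and KNAT5 stood at -0.44, -0.40, -0.41 and -0.53 and passed as lower. KNAT3, AS1 and AS2 kept their falls, at -1.20, -1.10 and -1.26. Median scaling and the authors' series table moved the median of all genes to 0.14 and 0.23. The share of called genes that were higher was 53.2% for the scaling used here, 66.6% after median scaling, 76.2% in the authors' table and 8.62% after spike-in scaling. No label says that equal amounts of spike-in were added.

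**Figure D3:**
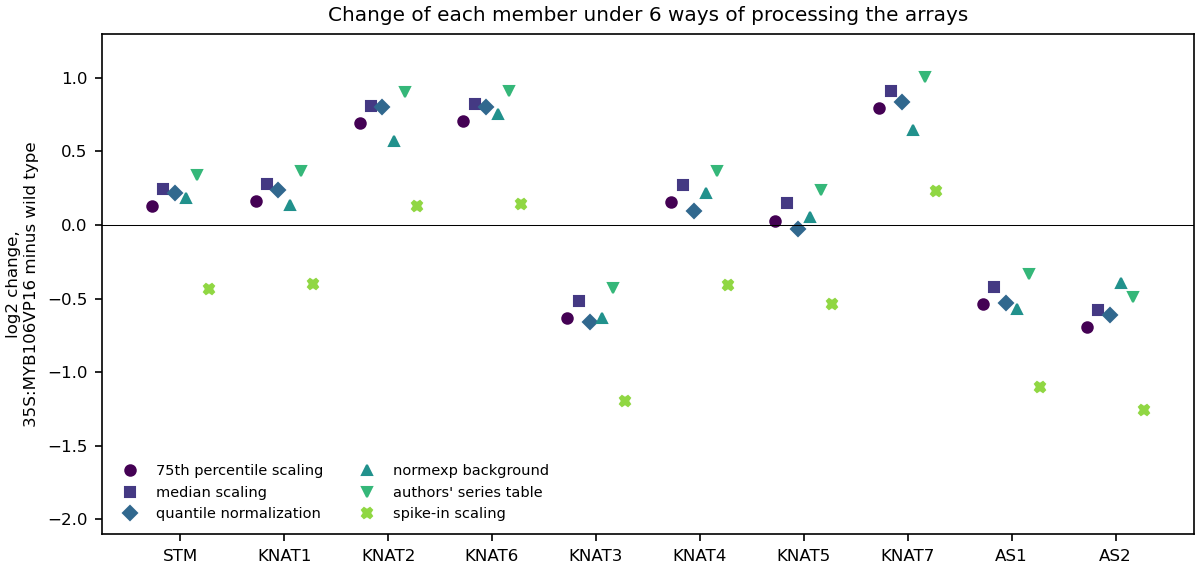
Log2 change (y axis, 35S:MYB106VP16 minus wild type) of each member under the 75th percentile scaling used in the text and 5 other ways of processing the arrays. With spike-in scaling all members shift down together, STM, KNAT1, KNAT4 and KNAT5 to below 0.

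Differences between members within an array do not depend on how whole arrays are scaled. They still hold any slide difference that varies by transcript. The spike-in transcripts themselves differed between the slides by unlike amounts, 0.20 to 0.88. The part of such a difference in the gains below was not tested. The pairs given here were picked after the values were seen, so they describe and carry no test. KNAT2 minus STM was -0.67 ± 0.06 (SD, n = 4) in 35S:MYB106VP16 and -1.24 ± 0.03 (SD, n = 3) in wild type, that is, 0.57 more in the transgenic plants. KNAT6 minus STM was 0.11 ± 0.20 against -0.47 ± 0.17, a gain of 0.58. KNAT2 minus KNAT1 and KNAT6 minus KNAT1 gained 0.53 and 0.54. In each of these 4 pairs every transgenic array exceeded every wild-type array, so KNAT2 and KNAT6 rose against STM, by its brighter probe, and against KNAT1 on any array-wide scale.

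The same held against the repressor genes. KNAT6 minus AS1 was -1.32 ± 0.10 (SD, n = 4) in 35S:MYB106VP16 and -2.56 ± 0.20 (SD, n = 3) in wild type, a gain of 1.24, or 2.37-fold in the ratio of KNAT6 to AS1 signal. KNAT2 minus AS1 gained 1.23, and KNAT2 and KNAT6 minus AS2 gained 1.39 and 1.399. Within class II, KNAT4 minus KNAT3 was 1.19 ± 0.07 against 0.40 ± 0.08, KNAT5 minus KNAT3 1.60 ± 0.06 against 0.94 ± 0.08, and KNAT7 minus KNAT3 -0.66 ± 0.36 against -2.09 ± 0.08. KNAT3 thus fell relative to each of its class II relatives, by the brightest probes, on all transgenic arrays.

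**Figure D4:**
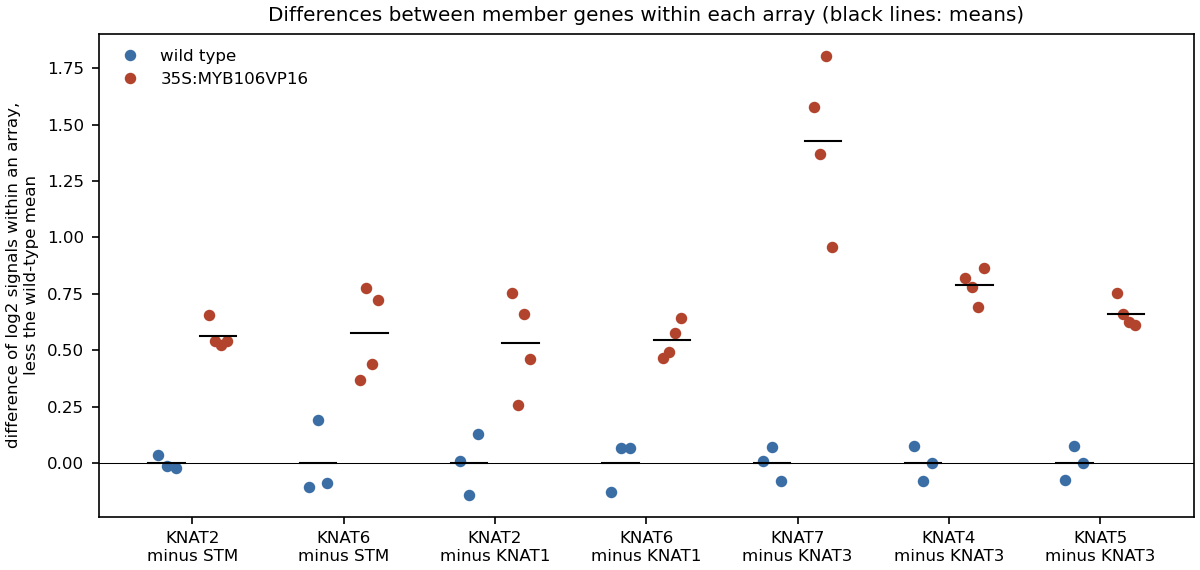
Difference between the log2 signals of pairs of member genes on the same array, less the wild-type mean of that pair (y axis); blue points are wild type, red points 35S:MYB106VP16 and black lines means. In all 7 pairs plotted the red points lie above the blue ones, by 0.53 to 1.43 on average.

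The partners that KNOX proteins bind changed in both directions. Of 13 tested TALE partners, the BELL genes and KNATM, 3 rose and 5 fell, a called share of 61.5% against 52.9% of all genes. Their median change was -0.13, and with spike-in scaling 1 rose and 10 fell. With that scaling 1246 of all 20509 genes were called higher and 13207 lower. These counts are the background for the spike-in counts of every related list below, so most genes of a list being lower there is no trait of the list. BLH6, a partner of KNAT7 in secondary wall control, fell 2.39-fold (log2 -1.26 ± 0.11 SE; limma adjusted p = 0.000252). KNATM, a KNOX-related gene that lacks the homeodomain, rose 1.998-fold (limma adjusted p = 0.000434), but was 0.22 and did not pass with normexp background correction (limma adjusted p = 0.199). PNF rose 1.55-fold (limma adjusted p = 0.0297) and lost its call without 35S:MYB106VP16 replicate 1 or 3 or wild type replicate 2 or 3 (limma adjusted p = 0.0593 to 0.0994), and with spike-in scaling, at 0.07. Its close relative RPL, a partner of STM and KNAT1 in the meristem, rose 1.38-fold, and ATH1, another STM partner, fell 1.28-fold; both were named after their values were seen. BLH11 stayed at background on all 7 arrays.

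Genes of the ovate family proteins (OFP), which bind TALE homeodomain proteins and repress transcription, changed in both directions. Of 15 tested, 3 rose and 6 fell, a share of 60% against 52.9% of all genes, with a median of -0.27, and 2 rose and 12 fell with spike-in scaling. OFP14 and OFP18 rose 2.48-fold and 2.45-fold, the former without passing under normexp (0.34; limma adjusted p = 0.0791), and OFP15 fell 1.78-fold. OFP1, known to bind KNAT7, did not pass (-0.32; limma adjusted p = 0.112), and OFP4, another such partner, stayed at background throughout.

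Of 27 regulators of KNOX genes, 5 rose, 7 fell and 15 did not pass, a share of 44.4%, against 52.9% of all genes. With spike-in scaling none passed as higher and 19 passed as lower, against 1246 and 13207 of all 20509 genes. None of the rises given next passed there, and LOB stood at 0.33. With median scaling 9 rose and 6 fell, against 7559 and 3787 of all genes. TCP3 and TCP10, TCP factors of the class that works with AS2 against KNOX genes in leaves, fell 2.56-fold (limma adjusted p = 0.00061) and 1.83-fold (limma adjusted p = 0.000486), and TCP2 and TCP24 fell as well, at -0.70 and -0.33, while TCP4 stood at 0.26 without passing. LOB, a boundary gene of the AS2 family, rose 1.86-fold, and LBD36 fell 1.81-fold. Among the CUC genes, which set organ boundaries and activate STM, CUC3 rose 1.54-fold, CUC2 fell 1.58-fold and CUC1 did not pass (0.35). BOP1, an activator of AS2 at the leaf base, rose 1.51-fold. Of the Polycomb genes, which keep KNOX loci silent, MSI1 and RING1B rose (0.35 and 0.41), EMF2 fell (-0.42), and CLF, SWN, FIE, LHP1, RING1A, BMI1A and BMI1B did not pass. In this paragraph all but TCP3, TCP10 and LOB were named after their values were seen.

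Leaf polarity is the programme in which AS1 and AS2 help to specify the upper side. Of its 18 genes tested, 1 rose and 5 fell, a share of 33.3% against 52.9% of all genes. Their median was -0.14, and none rose and 16 fell with spike-in scaling. KAN3, YAB5 and ATHB8 fell 1.57-fold, 1.47-fold and 1.46-fold, and all 18 lay between -0.65 and 0.33. With the authors' table YAB5 and ATHB8 did not pass (limma adjusted p = 0.0644 and 0.139). Of 11 tested shoot meristem genes other than KNOX, 3 rose and 1 fell, a share of 36.4% against 52.9% of all genes, or 1 and 5 with spike-in scaling. UFO, which is expressed in the meristem and did not clear background on wild-type arrays, was at least 1.60-fold higher. Its limma adjusted p of 0.0109 belongs to the fitted log2 change of 1.33, and it did not pass under normexp (limma adjusted p = 0.083). UFO met the detection filter through the transgenic arrays alone, so its p-value and its place among the 3 describe and carry no test. CLV2 rose 1.37-fold, turning to -0.11 with spike-in scaling, and CRN, which acts with it in the same receptor pathway, fell 1.41-fold, without passing in the authors' table (limma adjusted p = 0.224). CLV3, a stem cell marker, stayed at background throughout, and WUS cleared it on 1 array. The share of meristem in each sample could not be read from such dim markers, and its part in the rise of KNAT2 and KNAT6 was not tested.

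Genes of gibberellin and cytokinin, the hormones that class I KNOX proteins alter, moved both ways. The lists were drawn from gene families and not from known KNOX targets alone. Of 10 gibberellin enzyme genes tested, 1 rose and 3 fell, a share of 40% against 52.9% of all genes. With spike-in scaling 0 rose and 5 fell. GA20ox1, a biosynthesis gene that class I KNOX proteins repress, fell 3.25-fold (log2 -1.70 ± 0.32 SE; limma adjusted p = 0.00375). GA20ox3 rose 2.40-fold (limma adjusted p = 0.0159), without passing under normexp (limma adjusted p = 0.215), with spike-in scaling (limma adjusted p = 0.0728) or without wild type replicate 1 (limma adjusted p = 0.0586). GA2ox8, which inactivates gibberellin and cleared background on 2 of 4 transgenic arrays, fell 2.28-fold (limma adjusted p = 0.0155; 0.0561 under normexp). GA2ox2 and GA2ox4, which KNOX proteins are known to activate, did not pass (-0.28 and 0.33; named after their values were seen).

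Of 21 cytokinin genes tested, 3 rose and 5 fell, a share of 38.1% against 52.9% of all genes. With spike-in scaling 0 rose and 14 fell. CKX4 and CKX5, which degrade cytokinin, fell 2.66-fold and 1.99-fold. The fold of CKX5 leans on wild type replicate 1, at -1.22 against -2.20 and -2.19 on replicates 2 and 3. ARR7, a response regulator of the meristem, rose 2.34-fold (limma adjusted p = 0.0203), and lost its call without wild type replicate 2 or 3 (limma adjusted p = 0.0565 and 0.072). IPT7, a synthesis gene that STM induces, fell 1.79-fold (limma adjusted p = 0.0353) although its groups overlapped, and CKX3 rose 1.83-fold; both were named after their values were seen.

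Genes of the secondary wall, where KNAT7 acts, mostly fell. Of 19 tested, 15 fell, 1 rose and 3 did not pass, 84.2% called, with a median of -0.58, against 52.9% and 0.02 over all genes; 18 were lower with spike-in scaling. VND6, a master factor of vessel formation, fell 3.09-fold (log2 -1.63 ± 0.14 SE; limma adjusted p = 0.000221), and by less under normexp, with a log2 change of -0.83. MYB75, whose protein binds KNAT7 and which also drives anthocyanin synthesis, fell 4.57-fold (log2 -2.19 ± 0.54 SE; limma adjusted p = 0.0114), and cleared background on 3 of 4 transgenic arrays. Under normexp the log2 change of MYB75 was -0.74. FRA8, a gene of xylan synthesis, was the member that rose, 2.93-fold (limma adjusted p = 0.000887). The cellulose synthase genes CESA4, CESA7 and CESA8 fell 1.63-fold, 1.24-fold and 1.49-fold, and the wall factors MYB46 and MYB83 fell 1.42-fold and 1.97-fold (named after their values were seen). NST1, NST2 and NST3 did not enter the test, since they cleared background on 1 array at most. KNAT7 and its partner gene BLH6 thus moved in opposite directions, and BLH6 fell, as did most of the wall genes. The 3 xylem markers XCP1, XCP2 and ACL5 fell too, and their summed level was 4.59 to 5.89 times the 75th percentile signal on transgenic arrays against 8.73 to 10.1 times in wild type; the part of xylem content in the fall of the wall genes was not tested.

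**Figure D5:**
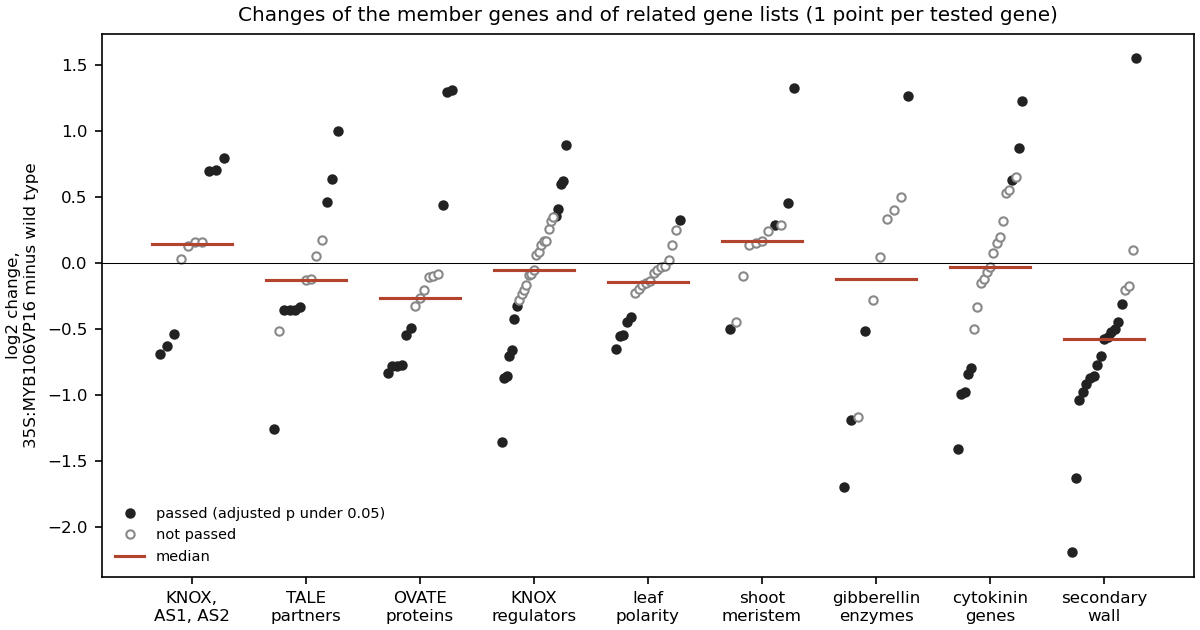
Log2 change (y axis, 35S:MYB106VP16 minus wild type) of each tested gene among the 10 members and in each of 8 related lists; filled points passed the limma threshold, open points did not, and red lines are medians. Most secondary wall genes lie below 0, with a median of -0.58, while the medians of the other lists lie between -0.27 and 0.17.

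The genes whose signals tracked a member most closely were found by the root-mean-square difference of log2 values over the 7 arrays, each gene centred on its own mean. For KNAT3 they were UBC6, a ubiquitin-conjugating enzyme, at 0.0339, and HK2, a cytokinin receptor, at 0.0442, with changes of -0.63 and -0.64. For AS1 they were LBD31 and RPS9, a plastid ribosomal protein, at 0.0449 and 0.0469, with changes of -0.56 and -0.49. Under normexp LBD31 stood at -0.26 and did not pass (limma adjusted p = 0.0945). For STM, by its brighter probe, the closest genes were ELF4-L4 and ETG1, at 0.067 and 0.0681. Their changes of 0.21 and 0.20 did not pass, and were -0.35 and -0.37 with spike-in scaling. Both passed with median scaling, at 0.33 and 0.31 (limma adjusted p = 0.0258 and 0.0491). ELF4-L4 also passed with quantile normalization and under normexp (limma adjusted p = 0.0404 and 0.0289). This closeness includes the step between genotypes and is given as a description.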

How the data were processed

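Per the file headers, the deposited intensity values are processed signals of Agilent Feature Extraction 9.1.3.1, background-subtracted and spatially detrended. The deposited flags served to drop outlier spots and to mark probes well above background. Repeated spots were averaged per probe, and values were put on a log2 scale against each array's own 75th percentile, which lay at 2213 to 2858. Of 43603 probes, 34185 were named through RefSeq (TAIR10.1), 25347 genes in all; no coordinates are given, since the files name no build. A gene was its brightest probe by mean over 7 arrays, tested where well above background on at least 3. The test was limma 3.58.1 (lmFit, eBayes, R 4.3.3) with a single term for genotype and p-values adjusted by Benjamini-Hochberg over 20509 genes. In simulated data with 50 genes changed at each fold, it recovered 4% at 1.25-fold, 30% at 1.5-fold, 78% at 2-fold and 88% at 4-fold. Far fewer genes were changed there than were called here, so these shares do not carry over to the members. No spot was saturated, and precision is limited by having 7 arrays. The authors' deposited series table holds the same intensity on a linear scale, uncentred, divided by a constant per group, 1042 for transgenic and 1238 for wild-type arrays, for a reason not stated; its column medians were 0.331 to 0.438. Members and lists were chosen with earlier results of these data known. Named were all members, MYB106, of each related list the 3 called genes with the largest absolute change, and 2 nearest profiles for STM, KNAT3 and AS1. Alternatives were median, quantile and spike-in scaling, normexp (offset 50), the authors' table, other detection filters, other uses of several probes, leaving out each array, and the replicate number as a block. Replicate numbers did not pair the arrays, with correlations of deviations across genes of 0.18, -0.03 and -0.08. A fold written "at least" uses as the dim group's level, array by array, the dim probe's signal or the array's lowest detected one, whichever is higher.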

Additional observations from a re-analysis of the deposited data

How the results depend on the processing

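Of 180 results of the 10 members under alternatives, 160 kept both direction and call, 8 lost a call, 1 gained one and 11 turned, all 11 in members that had not passed. Members higher and lower were 3 and 3, but 0 and 7 with spike-in scaling. They were 4 and 3 with median scaling and 3 and 2 with the authors' series table. With the mean over all probes, which averages in the faint KNAT3 and AS2 probes, 1 was lower. With spike-in scaling, which shifts all genes alike, STM stood at -0.44, KNAT1 at -0.40, KNAT4 at -0.41, KNAT5 at -0.53, CLV2 at -0.11, ELF4-L4 at -0.35 and ETG1 at -0.37. KNAT5 was -0.024 with quantile normalization, and -0.054 to 0.089 leaving out arrays. STM and KNAT5 were -0.17 and -0.10 with the mean over all probes, and also with the mean over probes above background on all 7 arrays, an alternative chosen after seeing the data. All genes higher and lower, 5768 and 5083, became 1246 and 13207 with spike-in scaling, 8915 and 8997 with every probe a feature, which tests more features, and 2277 were lower with the authors' series table. Leaving out arrays gave 4226 to 5498 higher and 3877 to 5122 lower, with 2 to 3 members higher and 3 lower. With the replicate number as a block, without 35S:MYB106VP16 replicate 4, the counts were 4596 and 4470, and the members' 3 and 3; among the related genes named, UFO lost its call (limma adjusted p = 0.0578). The slide could not be a block. The cause of other changes was not tested. The detection limit of the wild-type arrays sets the bound for UFO.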

Other observations

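The transgene's own signal varied between the transgenic arrays, and the array with the least of it had the least KNAT7. MYB106 stood at 3.08, 3.29, 3.48 and 2.56 on replicates 1 to 4, by its brighter probe, and KNAT7 at -0.43, -0.46, -0.18 and -1.14, so replicate 4 was lowest and replicate 3 highest for both genes. The other called members were mixed. Of those that rose, KNAT6 was highest on replicate 4, at -1.59, and KNAT2 was lowest on replicate 2, at -2.84. Of those that fell, AS2 was lowest on replicate 3, at -4.72, and AS1 was highest on replicate 4, at -0.36. KNAT3, which also fell, was lowest on replicate 4, at -0.01. With 4 arrays no relation was tested, and the values were picked after they were seen.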
